A study of Mus musculus with 16 samples.

Results

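The genes examined are 10 mouse genes of endocytosis and myeloid cell signalling whose human counterparts carry risk for Alzheimer's disease, namely Bin1, Picalm, Sorl1, Abca7, Ptk2b, Cd33, Clu, Abi3, Cd2ap and Cass4. They were taken by symbol from the deposited table, which lists 17951 genes, and all 10 were found. The table holds RNA sequencing of microglia, the resident macrophages of the brain, from 16 libraries in 3 groups. Mice were injected with Methoxy-X04 (Me-X04), a fluorescent probe of Aβ deposits that crosses into the brain, and live single cells were then sorted by CD11b, CD45 and CX3CR1, with dye-positive cells taken as those that had taken up Aβ. The 7 WT libraries came from wild-type mice, whose microglia were dye-negative. The 5 libraries of TG Me-X04- and 4 of TG Me-X04+ microglia came from 5xFAD mice, which carry human transgenes with familial Alzheimer's disease mutations, driven in neurons. TG libraries that share a number in their labels were taken to share an animal. All mice, WT included, received the dye. By the sample labels WT mice were aged 2 months and TG mice 6 months, while the study's methods put no mouse as young as the WT labels do, so on the labelled ages, age and genotype cannot be told apart.

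These genes sit along the route by which a cell takes in and sorts surface cargo. Picalm and Cd2ap are adaptors that link clathrin-coated pits and receptors to membrane bending and actin, and Bin1 shapes and pinches curved membranes. Sorl1 is a sorting receptor that carries APP between endosomes and the Golgi, Abca7 is a lipid transporter of the plasma membrane, and Clu is a secreted chaperone that binds Aβ. The human counterpart of Cd33 is an inhibitory sialic acid receptor that restrains uptake by myeloid cells. Ptk2b is a calcium-sensitive tyrosine kinase of adhesion signalling, Cass4 is a scaffold of the same pathway, and Abi3 belongs to the family of Abelson-interactor proteins of the actin-building WAVE complex.

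A WT library held 15623664 to 22119327 reads over all genes of the table, beside 17216633 to 25184600 where microglia were TG Me-X04- and 22430251 to 27579017 where they were TG Me-X04+. Genes of the mitochondrial genome took 27.2% to 44.8% of the reads of TG Me-X04+ libraries, 18.2% to 35.6% of those of TG Me-X04- libraries and 10.96% to 24.1% of those of WT libraries, and the part of this share in the results was tested by 1 alternative scaling only. All 10 microglia markers were read in every library, with a summed level of 4356 to 8364 RPKM (reads per kilobase of gene, relative to library size). The summed level of 8 astrocyte markers, 6 of them in the table, was between 9.89 and 29.6 RPKM, and 4 of 8 neuron markers in the table summed to at most 1.87 RPKM. The astrocyte sum was led by Slc1a3, which alone reached 29.1 RPKM, while Slc1a2 as the next highest reached 3.02. The median of the neuron sum was 0.873 RPKM in WT, 0.677 for TG Me-X04- and 0.134 for TG Me-X04+. Endothelial markers had medians of 9.86, 1.91 and 1.59 RPKM in that order. Pecam1 (log2FC -4.83) and Snap25 (-3.19) were called lower and Flt1 (5.87) higher in TG Me-X04+ against WT. Markers of oligodendrocytes summed to 1.08 to 8.35 RPKM and of lymphocytes to 0.370 to 4.34. Markers of border macrophages and monocytes summed to 3.21 to 27.4 RPKM, with a median of 5.15 in WT and 14.4 in TG Me-X04+ libraries, while their member Ccr2 was called lower against WT (-1.57). The part of these lists in the results was not tested. Of the microglia markers, Tmem119 was called lower in TG Me-X04+ microglia (log2FC -1.58 against TG Me-X04- and -1.55 against WT), as was P2ry12 against WT (-0.97). Independently of the groups, the libraries parted into 2 sets on the first principal component of their deviations from the group means, which held 37.8% of that variance. Set A holds WT 1 to 3, TG Me-X04- 1 and 2 and TG Me-X04+ 1 and 2, and set B holds the others. The study used 2 sequencers without naming the libraries of each, and whether the sets are those was not tested. A term for the sets, used below as an alternative, takes out spread that these same values defined. It thus tends to lower standard errors by construction, and its calls are no independent support. With it, calls over all genes rose from 986 to 2142 in TG Me-X04+ against TG Me-X04- and from 2562 to 3919 in TG Me-X04+ against WT.

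Levels are given on the log2 scale of RPKM, which is per length, so that genes can be set side by side as far as the deposited lengths hold. In WT microglia the mean level was highest for Cd33, at 8.57 ± 0.25 (SD, n = 7), followed by Picalm at 7.48 ± 0.28. Abi3 at 6.40 ± 0.32, Bin1 at 6.11 ± 0.83 and Cd2ap at 5.57 ± 0.42 came next, and neighbours among these 3 did not differ beyond their spread. Ptk2b at 3.18 ± 0.24 and Sorl1 at 2.82 ± 0.24 lay in the middle. Abca7 at 1.59 ± 0.28 and Cass4 at 1.18 ± 0.82 did not differ beyond their spread, and Clu was lowest at -2.44 ± 1.02. Cd33 thus ranked above 99.6% of all listed genes in WT microglia and Clu above 6.32%. The deposited lengths of Cd33 (2571 bases), Picalm (4174), Cd2ap (5399) and Bin1 (2451) are below the exonic lengths in Gencode M21, and with the M21 lengths the WT levels of these genes were 6.98, 5.56, 4.02 and 5.36, which puts Abi3 above Picalm and leaves the other ranks.

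**Figure D1:**
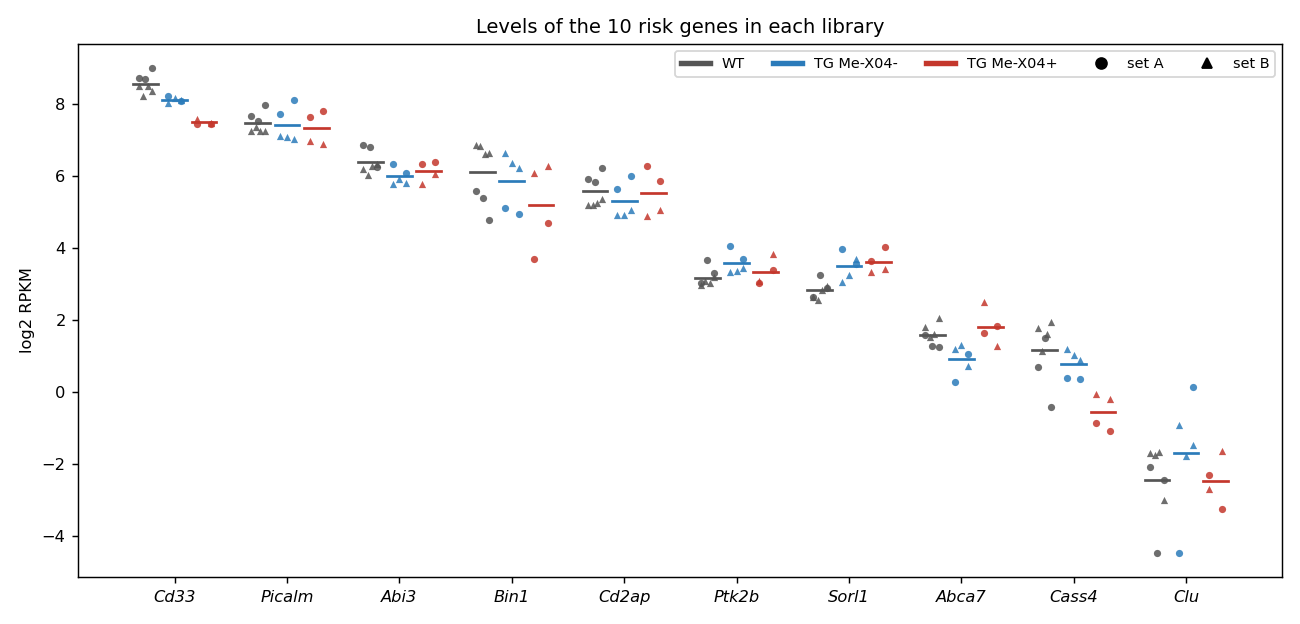
Level of each gene (log2 RPKM, vertical axis) in each of the 16 libraries, with circles for set A, triangles for set B, colours for the 3 groups and bars for the group means. Cd33 falls from 8.57 in WT to 7.49 in TG Me-X04+ microglia with no overlap between the 3 groups, while Bin1 parts by set within each group.

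The order differed in places between the groups. In TG Me-X04- microglia, Ptk2b at 3.58 ± 0.30 (SD, n = 5) and Sorl1 at 3.51 ± 0.36 no longer differed beyond their spread. In TG Me-X04+ microglia, Cd33 at 7.49 ± 0.06 (SD, n = 4) lay within the spread of Picalm at 7.33 ± 0.46. Sorl1 at 3.61 ± 0.31 stood above Ptk2b at 3.33 ± 0.36 there, within their spread. Cd2ap at 5.52 ± 0.66 likewise stood above Bin1 at 5.19 ± 1.22, within their spread, while Abca7 at 1.82 ± 0.51 and Cass4 at -0.55 ± 0.50 differed there beyond it.

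The design sets 3 comparisons. TG Me-X04+ against TG Me-X04- microglia asks what differs with dye uptake among cells of TG mice. TG Me-X04- against WT asks what differs in cells of TG mice without the dye, and TG Me-X04+ against WT combines both. They share groups, so their results are not independent of each other. A gene was called by limma where its adjusted p was under 0.05 and its log2 fold change (log2FC) was 0.7 or more in size, with Benjamini-Hochberg adjustment over all 17951 genes. In these sorted bulk samples, fewer cells of a kind and less RNA per cell cannot be told apart.

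Against WT, 3 of the 10 genes were called in TG Me-X04+ microglia, with Cd33 and Cass4 lower and Sorl1 higher, where 14.3% of all genes were called. No overlap between these groups was seen for 2 of the 10, Cd33 and Sorl1, and for 10.5% of all genes. The median log2FC of the 10 was -0.10, beside -0.11 over all genes. With dye uptake, in TG Me-X04+ against TG Me-X04- microglia, limma called 0 of 10, where it called 5.49% of all genes. At an unadjusted p under 0.05 there were 3, Abca7, Cd33 and Cass4, and voom on the recovered reads called 0. Cd33 and Cass4 did not overlap between these groups, as 7.93% of all genes did not. Between TG Me-X04- and WT, limma and voom called 0 of 10, where limma called 0.201% of all genes, and 4 passed at an unadjusted p under 0.05, Sorl1, Abca7, Cd33 and Abi3. Cd33 did not overlap between these groups either, as 1.06% of all genes did not.

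**Figure D2:**
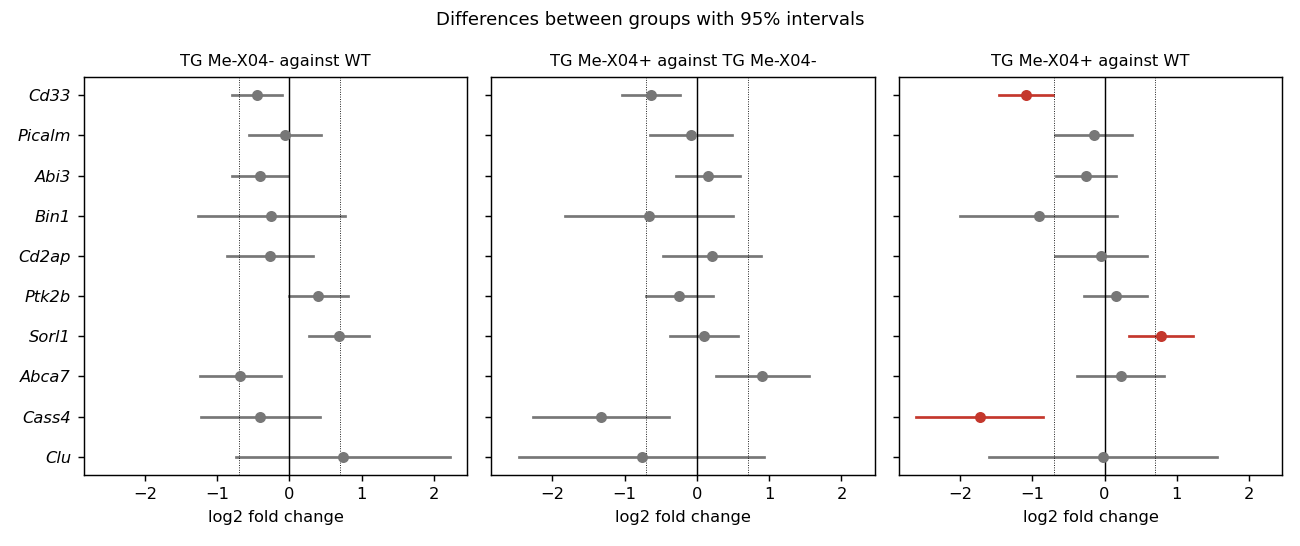
Log2 fold change of each gene (horizontal axis) in the 3 comparisons, with 95% intervals from limma, dotted lines at the fold threshold of 0.7 and red for genes called. Only Cd33, Sorl1 and Cass4 are called, and only in TG Me-X04+ against WT.

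Cd33 was the 1 gene of the 10 whose 3 groups were all apart. Its gene lies at chr7:43524216-43544428 on the minus strand of GRCm38 (Gencode M21). Its level in WT libraries ran from 8.24 through a median of 8.50 to 8.999. The 5 TG Me-X04- libraries stood at 8.24, 8.08, 8.04, 8.16 and 8.10, and the 4 TG Me-X04+ libraries at 7.46, 7.46, 7.59 and 7.47. TG Me-X04- microglia lay in the middle, at a narrow margin from WT (lowest WT 8.238, highest TG Me-X04- 8.235). All 3 groups were likewise apart for 0.423% of all genes. Between 5991 and 23323 reads of Cd33 stand behind each value. In TG Me-X04+ against WT its log2FC was -1.08 (SE 0.18, adjusted p = 0.000415), a level 2.12-fold lower, and it was called under each of the 27 alternatives. Against TG Me-X04- the log2FC was -0.63 (SE 0.19, adjusted p = 0.0620). With a term for the 2 sets the adjusted p was 0.00218 (log2FC -0.65) and by voom 0.0182 (-0.63), both short of the fold threshold. Under median centring the adjusted p was 0.168 (-0.60), with only the 2 groups compared 0.137 (-0.63) and with a replicate block 0.0556 (-0.68). In the first fit TG Me-X04- differed from WT by -0.45 (SE 0.17, adjusted p = 0.706). Scaling by the reads outside mitochondrial genes gave -1.02 for TG Me-X04+ against TG Me-X04-, which was called, as was -1.34 under quantile normalization. This scaling moved the median of all genes to -0.49 in that comparison, from -0.09. In TG Me-X04+ against WT it moved that median to -0.41, and in TG Me-X04- against WT to 0.10.

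Cass4, at chr2:172393794-172433757 on the plus strand, was lower in TG Me-X04+ microglia at a much lower level. Its WT libraries ran from -0.42 through a median of 1.49 to 1.94. The TG Me-X04- libraries stood at 0.39, 0.36, 1.19, 1.04 and 0.88, and the TG Me-X04+ libraries at -0.84, -1.09, -0.06 and -0.20. All 4 TG Me-X04+ libraries lay below all TG Me-X04- libraries and below 6 of 7 WT libraries, WT 3 being the exception with 58 reads. Cass4 had 36 to 115 reads per TG Me-X04+ library and 58 to 492 per WT library. In TG Me-X04+ against WT its log2FC was -1.73 (SE 0.42, adjusted p = 0.00890), a level 3.31-fold lower. Against TG Me-X04- the log2FC was -1.32 (SE 0.45, adjusted p = 0.0996), called with a term for the 2 sets (-1.24, adjusted p = 0.0219). Cass4 shares 1130 exonic bases with Gm14455, an antisense gene on the opposite strand. Gm14455 was itself called lower in TG Me-X04+ microglia, with a log2FC of -2.96 (SE 0.56) against TG Me-X04- and -3.62 against WT. Its reads per library were 71 to 101 in WT, 36 to 100 for TG Me-X04- and 0 to 25 for TG Me-X04+. Whether counting used strand is not given in the sources used here, so how reads of the shared bases were assigned to Cass4 or Gm14455 is not known.

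Sorl1, at chr9:41964720-42124297 on the minus strand, was the 1 gene of the 10 called higher, in TG Me-X04+ against WT. Its WT libraries ran from 2.56 through a median of 2.83 to 3.25. The TG Me-X04- libraries stood at 3.97, 3.57, 3.07, 3.25 and 3.69, and the TG Me-X04+ libraries at 3.65, 4.02, 3.33 and 3.43. Every TG Me-X04+ library was above every WT library, while 2 TG Me-X04- libraries, TG Me-X04- 3 and 4, lay inside the WT range. In TG Me-X04+ against WT the log2FC was 0.78 (SE 0.21, adjusted p = 0.0177), a level 1.72-fold higher. The difference of TG Me-X04- from WT was 0.68 (SE 0.20, adjusted p = 0.354). Between the TG groups it was 0.10, with a 95% interval from -0.38 to 0.57. The call against WT stood close to the fold threshold and was lost without TG Me-X04+ replicate 2 (0.64, adjusted p = 0.0715) and with library weights (0.70, adjusted p = 0.0368). Scaling by the reads outside mitochondrial genes gave 0.48 (adjusted p = 0.0843). Sorl1 shares 185 exonic bases with the antisense gene Gm16214, whose log2FC was 0.85 in TG Me-X04- against WT and 0.10 in TG Me-X04+ against WT, neither called.

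The promoters of these 3 called genes are printed so that their letters can be set beside the opposite directions of Cd33 and Cass4 against Sorl1. The windows run from 250 bases before to 50 after the RefSeq start on GRCm38.p6. Capitals mark GGAAGT or its reverse complement, the letters at the core of sites for ETS factors such as PU.1, the lineage factor of microglia. The Cd33 window is chr7:43533122-43533421 on the minus strand and the Cass4 window chr2:172393394-172393693 on the plus strand, and both starts differ from those of the Gencode genes. The Sorl1 window is chr9:42124248-42124547 on the minus strand. RefSeq gives Sorl1 a further window at chr9:42077164-42077463, which holds 0 matches to GGAAGT and is not printed.
Cd33: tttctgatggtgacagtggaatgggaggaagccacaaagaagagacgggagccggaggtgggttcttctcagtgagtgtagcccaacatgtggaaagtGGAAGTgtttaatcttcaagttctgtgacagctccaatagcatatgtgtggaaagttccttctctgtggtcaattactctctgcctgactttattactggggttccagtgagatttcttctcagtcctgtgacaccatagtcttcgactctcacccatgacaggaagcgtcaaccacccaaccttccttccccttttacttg
Cass4: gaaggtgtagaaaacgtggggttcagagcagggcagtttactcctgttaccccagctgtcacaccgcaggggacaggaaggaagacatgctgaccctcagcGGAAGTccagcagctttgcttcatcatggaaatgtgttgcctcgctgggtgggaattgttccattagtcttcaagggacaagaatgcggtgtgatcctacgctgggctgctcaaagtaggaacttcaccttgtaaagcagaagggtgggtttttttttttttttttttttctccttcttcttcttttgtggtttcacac
Sorl1: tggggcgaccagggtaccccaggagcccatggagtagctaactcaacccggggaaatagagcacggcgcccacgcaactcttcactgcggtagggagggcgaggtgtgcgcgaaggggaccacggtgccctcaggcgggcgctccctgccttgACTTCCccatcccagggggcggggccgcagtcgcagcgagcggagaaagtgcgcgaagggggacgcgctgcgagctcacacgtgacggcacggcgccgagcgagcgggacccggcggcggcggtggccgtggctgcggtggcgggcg
Counted from the start, the first letter lies at -152 in Cd33, at -149 in Cass4 and, as the reverse complement, at -97 in Sorl1. Windows were searched for 6 of the 10 genes, Abca7, Cass4, Cd2ap, Cd33, Picalm and Sorl1. GGAAGT was found in 3 of the 6, the 3 called genes, and in 23.8% of all 32851 promoter windows, on either strand. The 6 are counted by gene, with a match in any window of the gene, such as 1 of those of Sorl1. All promoters are counted by window, so these shares and those below differ in unit and are not directly comparable. The rest of the 10 were not searched, so it is not known whether GGAAGT is limited to the called genes. The E-box letters CACGTG were found in 2 of the 6, Picalm and Sorl1, and in 7.15% of all windows, and the GC-box letters GGGCGG in 4 of the 6 and in 35.7%. The AP-1 letters TGANTCA were in none of the 6 and in 7.81% of all windows. These matches describe letters and are not sites.

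Abca7 took a different course, lowest in TG Me-X04- microglia. Its WT libraries ran from 1.24 through a median of 1.58 to 2.06. The TG Me-X04- libraries stood at 0.28, 1.05, 1.19, 1.32 and 0.73, and the TG Me-X04+ libraries at 1.64, 1.83, 2.51 and 1.29. The TG groups overlapped by 1 library on each side, at 1.29 and 1.32. The log2FC was 0.90 in TG Me-X04+ against TG Me-X04- (SE 0.31, adjusted p = 0.101). Of 25 alternatives only 1, the term for the 2 sets, called it (0.94, adjusted p = 0.0292). Scaling by the reads outside mitochondrial genes gave 0.51 (adjusted p = 0.369). A replicate block, which pairs the TG groups by number, gave 0.88 (adjusted p = 0.190), and without TG Me-X04+ 3 it was 0.67. The log2FC was -0.68 in TG Me-X04- against WT (SE 0.27, adjusted p = 0.785) and 0.22 in TG Me-X04+ against WT, with a 95% interval from -0.38 to 0.82. The gene lies at chr10:79996494-80015572 on the plus strand, with 134 to 876 reads a library.

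Bin1, at chr18:32377230-32435737 on the plus strand, varied more between the 2 sets than between the groups. Its WT libraries stood between 4.796 and 5.60 in set A and between 6.61 and 6.86 in set B. The TG Me-X04- libraries stood at 5.11 and 4.94 in set A and at 6.64, 6.36 and 6.22 in set B, and the TG Me-X04+ libraries at 3.71 and 4.70 in set A and 6.08 and 6.29 in set B. Within each set the TG Me-X04+ libraries were below all WT libraries. Set B stood above set A by 1.61 on average over the 3 groups, a 3.05-fold higher level and a larger gap than that of 88.3% of all genes. Its log2FC in TG Me-X04+ against WT was -0.91 (SE 0.52, adjusted p = 0.272) without regard to the sets, and -0.42 without TG Me-X04+ 1. With a term for the sets it was -0.80 (SE 0.19, adjusted p = 0.00476) and was called, under the limit given above for that term. Against TG Me-X04- it was -0.66 (SE 0.55, adjusted p = 0.580), -0.16 without TG Me-X04+ 1, and -0.50 (adjusted p = 0.118) with the term. Bin1 shares 256 exonic bases with A830052D11Rik, a long non-coding RNA gene on the opposite strand that was called lower in TG Me-X04+ microglia (log2FC -2.81 against TG Me-X04- and -2.43 against WT). That gene had 0 to 10 reads in TG Me-X04+ libraries and 9 to 103 in WT.

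**Figure D3:**
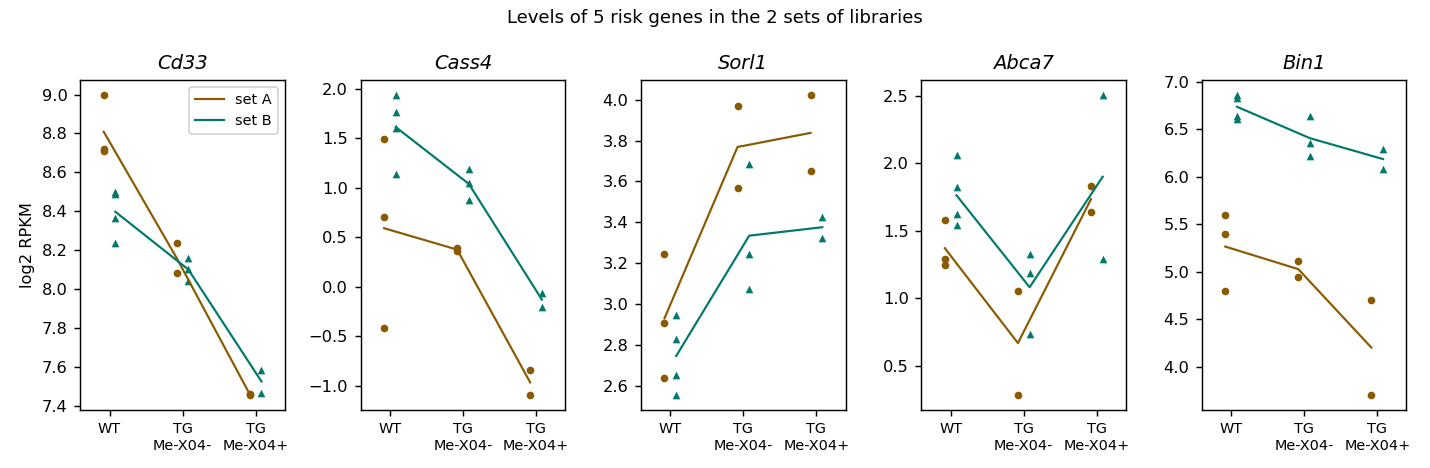
Level (log2 RPKM, vertical axes that differ between panels and do not start at 0) of 5 genes in the 3 groups, with circles for libraries of set A, triangles for set B and lines through the means of each set. Cd33, Cass4 and Bin1 are lowest in TG Me-X04+ in both sets, Abca7 is lowest in TG Me-X04- in both, and the Bin1 lines are 1.61 apart on average.

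The other members of the endocytic machinery gave no call. Picalm, with means of 7.33 ± 0.46 for TG Me-X04+, 7.41 ± 0.48 for TG Me-X04- and 7.48 ± 0.28 for WT microglia, had a log2FC of -0.15 in TG Me-X04+ against WT, with a 95% interval from -0.68 to 0.38. Cd2ap had means of 5.52, 5.31 and 5.57 in the same order, and its interval in TG Me-X04+ against WT ran from -0.69 to 0.58. Both genes were higher in set A than in set B in each group, by 0.69 for Picalm and 0.91 for Cd2ap on average. These intervals leave out the size of change that Cass4 showed, and they do not show equal levels.

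Among the signalling genes, Ptk2b ran from 2.98 to 3.66 in WT libraries. It stood at 4.05, 3.69, 3.33, 3.36 and 3.46 in TG Me-X04- and at 3.04, 3.39, 3.09 and 3.83 in TG Me-X04+ libraries. Its log2FC in TG Me-X04- against WT was 0.40 (SE 0.19, adjusted p = 0.990), and in TG Me-X04+ against WT 0.15. Abi3 averaged 6.40 ± 0.32 in WT, against 5.99 ± 0.23 for TG Me-X04- and 6.15 ± 0.28 for TG Me-X04+ microglia, with a log2FC of -0.41 (SE 0.18, adjusted p = 0.937) in TG Me-X04- against WT. Of its 4153 exonic bases, 2913 are shared with Zfp652 and 1708 with Phospho1, both on the opposite strand, so its reads are uncertain where strand was not used.

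Clu, the one secreted protein among the 10, was barely read in these microglia. It had 1 to 25 reads in a WT library, at a mean level of -2.44. TG Me-X04- libraries had 1 to 73 reads at a mean of -1.70, and TG Me-X04+ libraries 4 to 24 at a mean of -2.46. The 95% interval of TG Me-X04+ against WT ran from -1.60 to 1.56, so changes of either sign within these bounds are compatible with these values. Clu is strongly made by astrocytes. The 6 astrocyte markers in the table, led by Slc1a3, summed to 9.89 to 19.4 RPKM for TG Me-X04+, 13.98 to 28.3 for TG Me-X04- and 15.4 to 29.6 for WT libraries. The part of astrocytes in the Clu reads was not tested. Clu and Ptk2b both lie on chromosome 14.

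The partners of these genes were read from 7 lists of textbook partners, none of which holds any of the 10. No list had a gene called by limma in TG Me-X04- against WT, nor by voom. The list counts stand beside 5.49% of all genes called in TG Me-X04+ against TG Me-X04- and 14.3% against WT. Of 22 clathrin genes in the table, 0 were called in TG Me-X04+ against TG Me-X04- microglia, at a median log2FC of 0.16. Against WT, Hip1, a clathrin-binding adaptor, rose (log2FC 1.97, SE 0.62, adjusted p = 0.0401) and Epn2, an epsin that bends membrane at coated pits, fell (-1.22, SE 0.31, adjusted p = 0.0116), at a median of 0.03. This count of 2 was 1 without WT 1, 2, 3 or 6 or TG Me-X04+ 1 or 4. Of 17 genes of endosomal sorting, Snx3, a retromer adaptor that recycles cargo to the Golgi, rose by 1.17 (adjusted p = 0.0430) against TG Me-X04- and by 1.36 (SE 0.30, adjusted p = 0.00494) against WT, with 303 to 468 reads per WT library and 673 to 1081 per TG Me-X04+ library. The medians of that list were 0.17 and 0.02, and the count against TG Me-X04- was 0 without TG Me-X04- 3, 4 or 5 or TG Me-X04+ 1 or 2. None of the 9 WAVE complex genes and none of the 7 ABCA transporters was called by limma in any comparison, beside 0 of each by voom.

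Of 14 genes of adhesion signalling, 1 rose and 1 fell against WT, where 14.3% of all genes were called. None was called against TG Me-X04-. Fgr, a Src-family kinase of myeloid cells, rose by 4.75 (SE 0.69, adjusted p = 0.00015) from 0 to 42 reads in WT to 93 to 500 in TG Me-X04+ libraries. Pxn, the focal adhesion scaffold paxillin, fell by 0.90 (SE 0.23, adjusted p = 0.0133). Of the 5 phosphatases and regulators that act below inhibitory receptors such as human CD33, only Socs3, a feedback inhibitor of cytokine signalling, was called. Socs3 was lower in TG Me-X04+ microglia (log2FC -2.29, adjusted p = 0.00748, against TG Me-X04- and -1.58, adjusted p = 0.0191, against WT). The call against WT was lost without TG Me-X04+ 1 or 2. Among the 8 apolipoprotein receptor genes in the table, 2 were called, both higher, in each comparison of TG Me-X04+ microglia. Of these, Lrpap1, the chaperone of this receptor family, rose by 1.47 (SE 0.24, adjusted p = 0.00157) against TG Me-X04- and by 1.90 (SE 0.22, adjusted p = 1.98e-05) against WT. The median log2FC of these 8 genes was 0.08 against TG Me-X04- and 0.21 against WT.

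**Figure D4:**
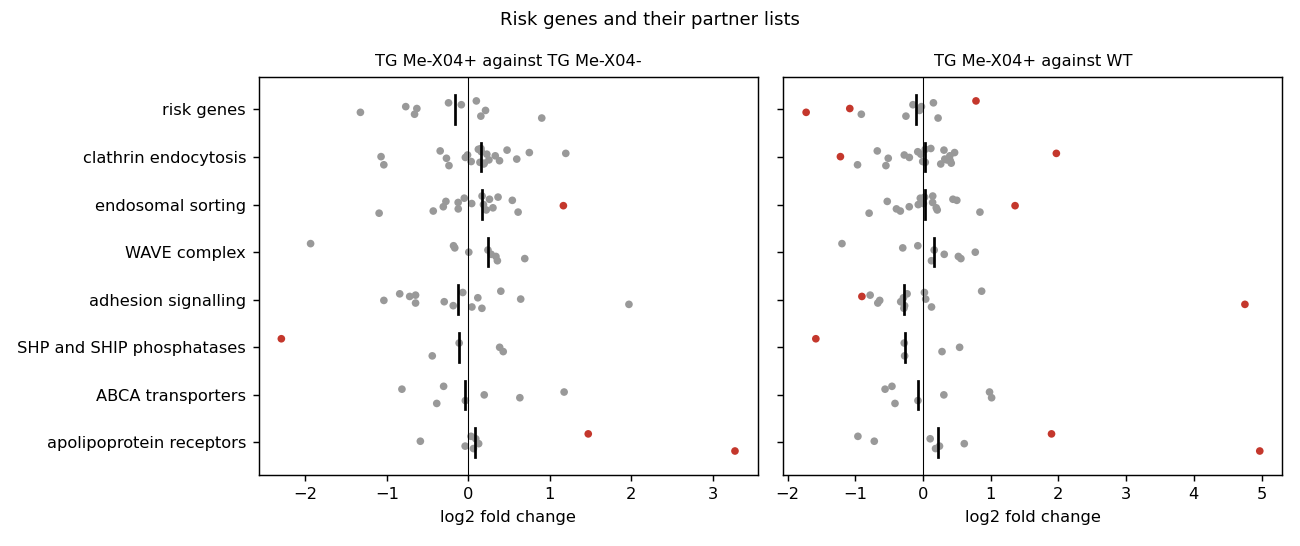
Log2 fold change (horizontal axis, ranges differ between panels) of the 10 risk genes and of the genes of 7 partner lists in the 2 comparisons with TG Me-X04+ microglia, with red for genes called and black bars for list medians. The list medians lie between -0.28 and 0.24, while single genes such as Fgr (4.75 against WT) and Socs3 (-2.29 against TG Me-X04-) stand far from them.

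For each of the 3 called genes, genes with the most similar pattern over the 16 libraries were sought among those with a mean log2 RPKM of at least 0. The pattern most like that of Cd33 was that of Slc25a37, a mitochondrial iron importer (Pearson r = 0.978). Cass4 was most like Trim47 (r = 0.954) and Abl1, a tyrosine kinase (r = 0.942). Sorl1 was most like Fzd7, a Wnt receptor (r = 0.924), and Ildr2 (r = 0.897). These correlations describe libraries that share groups, sets and depth.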

How the data were processed

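Trim Galore 0.4.4 (trimming), STAR 2.5.4b (alignment to GRCm38), featureCounts (counting per gene) and edgeR 3.24.3 (removal of low genes, library scaling) were used by the authors, per the submitters' processing notes and the study's methods. The authors deposited log2 RPKM of 17951 genes in each library, computed with a prior of 2 reads at the mean library size, beside each gene's length in bases. They also deposited fold changes, p-values and scores of their own comparisons, which were not used. Groups came from the sample labels.

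Tests on the deposited log2 values used limma (3.58.1) under R (4.3.3), with lmFit and a trended eBayes (all 16 libraries in 1 fit of 3 groups, no covariate, two-sided), adjusted over all 17951 genes by the Benjamini-Hochberg method. The study names a quasi-likelihood test on counts, which was not run here, as the deposited unit is log2 RPKM. Scaling makes a value relative to the other reads of its library. The study scaled library sizes by the trimmed mean of M-values, so they are not the summed reads. TG Me-X04+ 2, for example, had 27556186 reads and a scaled size of 14973402. Whether this scaling fully offset a rise of abundant RNA is not known. Whole reads were recovered for 100% of values (largest deviation 4.41e-07 of a read, tolerance 0.01) and tested with limma voom as an alternative. On these reads voom called 1025 genes in TG Me-X04+ against TG Me-X04-, 25 in TG Me-X04- against WT and 2328 in TG Me-X04+ against WT. Reads were used for depth, and the limits of a low count cover counting error only. The scripts were tested on simulated data.

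The members and gene lists were chosen with earlier results of these data known. The rule named all 10 genes, up to 4 called genes of each list by size of change, and the 2 genes with the highest correlation to each called gene. Some genes that this rule named are not reported here. Genes overlapping the members were named after their values were seen. Other alternatives were other variance models, library weights, median centring, quantile normalization, scaling by reads outside mitochondrial genes, pseudocounts of 1 and 0.1, a filter at a mean log2 RPKM of 0, only the 2 groups compared, no fold threshold, a replicate block, a term for the 2 sets, each library left out, and, chosen after seeing the data, each set alone. The pairing rests on the numbers in the labels, both TG libraries of a number being taken as 1 animal. Their deviations from the group means correlated at 0.292, 0.325, 0.320 and 0.329 for numbers 1 to 4. Coordinates are those of Gencode M21 on GRCm38, a later release than the authors counted on, and its lengths were tried for the order of levels after seeing the data. Promoter letters are from RefSeq on GRCm38.p6. Figures were drawn with matplotlib 3.10.9.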

Additional observations from a re-analysis of the deposited data

Results flagged for a closer look

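Of 30 groups of libraries tested (each of the 10 genes in each of the 3 groups, WT included), 1 held a library far from the others by Dixon's criterion, which flags about 1 in 20 groups by chance. Cd33 in TG Me-X04+ 3 stood at 7.59 log2 RPKM, with the nearest of the other 3 at 7.47, a gap of 0.940 of the group's range and above the 95% critical value for 4 libraries. The library is in set B, and its Cd33 level was still below every TG Me-X04- library.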

How the results depend on the processing

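The 0 calls in TG Me-X04- against WT stood under all 28 alternatives. The count in TG Me-X04+ against TG Me-X04- was 1 under quantile normalization (Cd33), 1 when libraries were scaled by reads outside mitochondrial genes (Cd33), 2 with a term for the 2 sets (Abca7, Cass4) and 1 in set B alone (Cass4), and 0 elsewhere. Of all 17951 genes, these 4 settings called 828, 1197, 2142 and 2262 in that order, beside 986 in the first fit. The 3 calls in TG Me-X04+ against WT were 1 in set A alone, 2 to 3 when a library was left out and 2 to 4 elsewhere. Of all genes, 1652 were called there in set A alone and 3919 with the set term, beside 2562 in the first fit. For Sorl1 the call was lost in set A alone (0.91) and set B alone (0.63) and under quantile normalization (0.64), for Cass4 in set A alone (-1.56), and quantile normalization called Picalm (-0.85) and Abi3 (-0.78). The list counts in TG Me-X04- against WT stayed at 0 under all 28. Elsewhere they ranged from 0 to 5, the adhesion list under quantile normalization being the 5. The causes were not tested.

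The replicate block, which pairs the 2 TG groups by number, changed no call of the 10 genes between them. Same-numbered WT and TG libraries are other animals and share only a number, with correlations of their deviations between -0.289 and 0.315. The negative ones are those of number 3, whose WT and TG libraries lie in different sets. Within 1 set such pairs reached 0.315, so the correlations do not show that a shared number is a shared animal. The same block moved the count against WT in TG Me-X04+ microglia from 3 to 2 (Cass4 -1.45, adjusted p = 0.0653), left 1 clathrin gene and 0 phosphatase genes called and called 1 ABCA gene.

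Signs turned only for differences that were not called. In TG Me-X04+ against TG Me-X04-, quantile normalization gave -0.11 for Sorl1, 0.069 for Clu, -0.37 for Abi3 and -0.23 for Cd2ap. Scaling by reads outside mitochondrial genes gave -0.29 for Sorl1, -0.24 for Abi3 and -0.18 for Cd2ap there, and set B alone 0.073 for Ptk2b. Leaving out 1 library gave -0.24 to 0.088 for Picalm, -0.041 to 0.21 for Sorl1 and -0.039 to 0.42 for Cd2ap. Picalm in TG Me-X04- against WT was 0.0276 under the mitochondrial scaling, 0.18 in set A alone and -0.24 to 0.030 with 1 library left out. In TG Me-X04+ against WT, the mitochondrial scaling gave -0.080 for Abca7 and -0.15 for Ptk2b, and set A alone -0.12 for Ptk2b, 0.22 for Clu and 0.070 for Cd2ap. Clu was 0.50 under quantile normalization, 0.14 with the replicate block, 0.035 with the set term and 0.015 by voom. Leaving out 1 library gave -0.0076 to 0.40 for Abca7, -0.0098 to 0.25 for Ptk2b, -0.36 to 0.24 for Clu and -0.30 to 0.16 for Cd2ap. The filter at a mean log2 RPKM of 0 removed Clu, which gave no value there. Depth limits Clu above all, at 1 to 73 reads.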
